A study of Arabidopsis thaliana with 15 samples.

Results

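The comparison described here set the myb3r1 single mutant of Arabidopsis thaliana against the wild type Col-0 in dissected inflorescence meristems, by mRNA sequencing. It used 6 of the 15 libraries of the series, 3 labelled myb3r1 and 3 labelled Col-0, and all genes with at least 1 TPM in 3 or more of the 15 libraries, which left 21737 of 33326 genes. TPM is the length-corrected share of a gene in its library, scaled so that every library has the same total, and a rise of some transcripts lowers the share of others. The other groups, also of 3 libraries each, were myb3r1myb3r4 (the double mutant), myb3r4, and pMYB3R4::GFP-MYB3R4mNES, named for a fusion of GFP with MYB3R4 and the MYB3R4 promoter (the mNES line). The double mutant and myb3r4 entered as a second comparison, and all 15 libraries shared the estimate of the spread.

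For all groups the light phase lasted 16 h (21 °C, light of 170 µmol m-2 s-1) and the dark phase 8 h (17 °C), and plants were taken when the stem had reached about 1 cm. Every library was made from a pool of 36 meristems from which the opened flowers had been removed, so young flower buds could still be part of the sample. The labels used here do not name the myb3r1 allele, the background of the transgene or the age in days. Each library also carries the number of a shift experiment, equal to its replicate number in all groups, with no word on what was shared. The labels do not say whether libraries of a group came from separate sets of plants, and p-values then measure only the spread between these libraries, which may be technical. In such bulk samples fewer cells of a type and less RNA per cell cannot be told apart.

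MYB3R proteins are MYB transcription factors that bind the MSA element (mitosis-specific activator) in the promoters of genes used at the entry into mitosis and in cytokinesis. In Arabidopsis MYB3R4 is known mainly as an activator of these genes and MYB3R3 and MYB3R5 as repressors, while MYB3R1 has been placed in both roles and acts redundantly with the others. In dividing tissue such as the inflorescence meristem, activating and repressing MYB3R proteins are thought to confine the transcription of their targets to a short window before division.

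The tissue label was checked against its marker genes. Regulators of the meristem were present, with STM, a homeobox gene that maintains undifferentiated cells, at 53.2, 54 and 52.1 TPM in myb3r1 and 44.8, 48.2 and 49.2 TPM in Col-0, and WUS, the organizer of the stem cell niche, at 11.3, 11.4 and 10.2 TPM in myb3r1 and 13.8, 13.7 and 11.7 TPM in Col-0. The values did not overlap, but neither difference passed the test. Of 21 tested meristem regulators, 20 differences were positive, with a median of 0.11, and 1 was negative, that of WUS. Only 2 of the 21 passed, both higher. Floral organ identity genes were expressed as well, and none of 21 tested passed (0 by limma, 5 at an unadjusted p under 0.05, which 4553 or 20.9% of all tested genes reached, 2447 of them higher), for instance AG, which specifies stamens and carpels, at 55.1 ± 1.81 TPM in myb3r1 and 59 ± 0.37 TPM in Col-0 (SD, n = 3). Anther genes of the tapetum list summed to 2520 to 2864 TPM in myb3r1 and 2314 to 2658 TPM in Col-0, ranges that overlapped. Libraries of the same group correlated at 0.985 to 0.989 on the log2(TPM + 0.5) scale. Read totals are not part of TPM, and the depth is therefore unknown.

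MYB3R1 itself (AT4G32730, chromosome 4, 15790133 to 15796114 on the plus strand of TAIR10.1) had 17.2, 18.1 and 17.5 TPM in the libraries labelled myb3r1 and 13.4, 13.1 and 13.4 TPM in Col-0. The myb3r1 values all lay above the Col-0 values, and the difference was 0.39 on the log2(TPM + 0.5) scale (SE 0.048, limma adjusted p = 0.000421). A value summed over the gene does not check a mutation label: it does not show which part of the transcript was read, and AT4G32750 shares 214 bases with the gene on the other strand. In the double mutant, which carries the same gene name in its label, MYB3R1 had 15.2, 14.1 and 14 TPM, against 14.4, 14.8 and 14 TPM in myb3r4, and these values overlapped. The effect therefore differed between the 2 comparisons by -0.39 (SE 0.068, adjusted p = 0.00268). Among 14 tested genes within 30 kb of MYB3R1, 2 were higher and none lower, namely MYB3R1 and PERK14, a receptor-like kinase at 37.5, 39 and 37.3 TPM in myb3r1 and 32.4, 28.4 and 29.2 TPM in Col-0. Within 500 kb, 7 of 226 were higher and 4 lower, beside 687 (3.16%) higher and 673 (3.10%) lower of all 21737 tested genes.

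The other MYB3R genes did not pass the test in myb3r1. MYB3R4 had 10.9, 10.9 and 10.4 TPM in myb3r1 and 12.8, 10.4 and 10.4 TPM in Col-0, with overlapping values and a difference of -0.057 (SE 0.066, adjusted p = 0.69), whose sign turned without Col-0 replicate 1 (0.038, adjusted p = 0.718). The repressors MYB3R3 and MYB3R5 were at 9.36 and 4.32 TPM in myb3r1 and at 9.1 and 4.12 TPM in Col-0, and their values overlapped too. MYB3R1 was the only gene to pass of 14 tested genes in the list of MYB3R, E2F and DREAM components, the complexes that time cell cycle transcription.

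In all, 1360 of 21737 genes passed the test at an adjusted p under 0.05, 6.26% of the genes, with 687 higher (3.16%) and 673 lower (3.10%) in myb3r1. In 1359 of them the 3 myb3r1 and 3 Col-0 values did not overlap, which also held for 27.3% of all tested genes. The count was sensitive to single libraries: it was 796, 880 and 757 without myb3r1 replicates 1, 2 and 3, and 662 and 804 without Col-0 replicates 2 and 3, against 1258 without Col-0 replicate 1. Through all 6 omissions, 222 of the higher and 293 of the lower genes remained past the threshold. The rises and falls differed in size and in level. The median rise was 0.27 on the log2 scale among genes with a median of 37.9 TPM in myb3r1 and 31.1 TPM in Col-0, and the median fall was -0.70 among genes with a median of 6.36 TPM in myb3r1 and 11.9 TPM in Col-0. Only 17 genes were higher by at least 2-fold (0.0782% of those tested), while 232 were lower by at least 2-fold (1.07%), and 191 of these 232 stood under 10 TPM in Col-0, with a median over the 232 of 0.467 TPM in myb3r1 and 3.64 TPM in Col-0. Low levels were found among the 17 rises as well, 16 of them under 10 TPM in Col-0, with a median over the 17 of 4.42 TPM in myb3r1 and 0.967 TPM in Col-0.

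**Figure D1:**
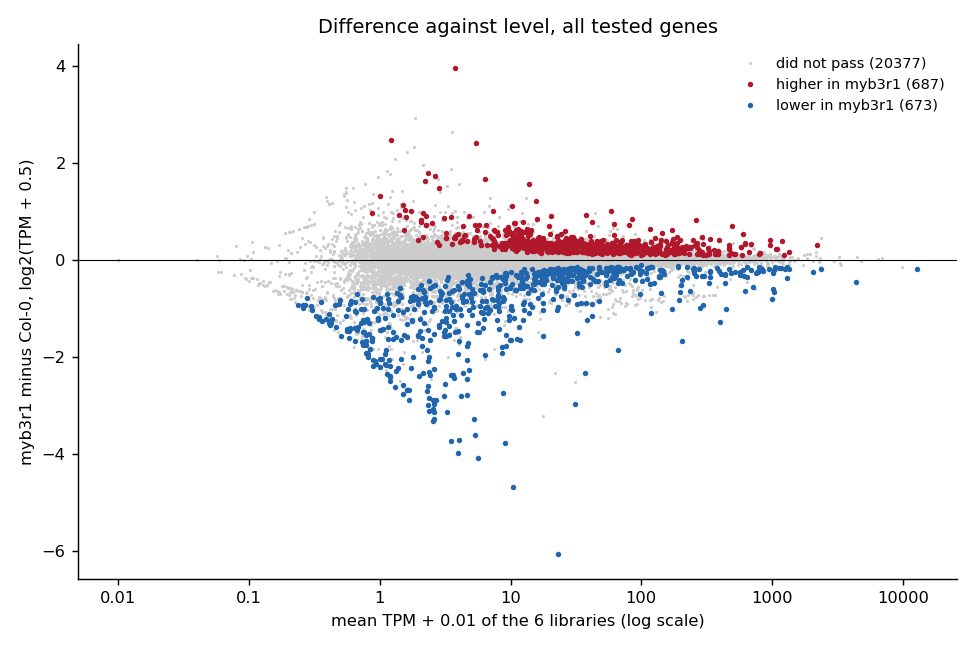
Each point is a tested gene, with its mean TPM over the 6 libraries, plus 0.01, on a log axis and its difference (myb3r1 minus Col-0) in log2(TPM + 0.5); red points are the 687 genes higher and blue points the 673 genes lower in myb3r1 at an adjusted p under 0.05. Large differences in both directions are mostly of genes at low levels.

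By level, the share of genes that rose was 1.06% among genes under 5 TPM in Col-0 and 7.42% among those from 100 to 500 TPM, whereas the share that fell was 4.18% under 5 TPM, 2.44% from 20 to 100 TPM and 12.8% above 500 TPM, where 37 of 290 genes fell. The 5 chromosomes had similar shares of called genes, from 6.03% on chromosome 2 to 6.86% on chromosome 4.

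The most direct question for a MYB3R mutant is what happened to genes of mitosis and cytokinesis. In myb3r1 most of them did not pass the test, a group of spindle checkpoint and cytokinesis genes rose by less than 0.5 on the log2 scale, and the A-type cyclin CYCA1;1 fell. Of 20 mitotic cyclins and their kinases, none rose and 2 fell, beside 3.16% and 3.10% of all tested genes. Their median difference was 0.050, against 0.010 over all tested genes. CYCA1;1, a cyclin of the mitotic entry, had 25, 25.6 and 24 TPM in myb3r1 and 32.6, 35.4 and 32.8 TPM in Col-0, without overlap, a difference of -0.43 (SE 0.041, adjusted p = 6.52e-05). The other was CDKB2;1, a kinase specific to the mitotic phase, at 64.2, 62.1 and 62.9 TPM in myb3r1 and 72.6, 67.8 and 67.9 TPM in Col-0, a small difference of -0.14 that passed only without Col-0 replicate 3 among the 6 fits that left out a library. CYCB1;1, the standard marker of mitotic cells, averaged 19.2 ± 0.724 TPM in myb3r1 and 18.6 ± 1.32 TPM in Col-0 (SD, n = 3), with values that overlapped (0.046, adjusted p = 0.786).

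Among 26 mitotic regulators and spindle genes, 6 rose and 1 fell, beside 3.16% and 3.10% of all tested genes. The list median was 0.025. SCL28 (AT1G63100), a GRAS family protein in TAIR10.1, had 32.8, 32.9 and 34.1 TPM in myb3r1 and 23.6, 24.8 and 26.7 TPM in Col-0. All 3 myb3r1 libraries lay above all 3 Col-0 libraries, by 0.41 (SE 0.064, adjusted p = 0.00226). PANS1, an inhibitor of the anaphase-promoting complex that protects sister chromatid cohesion, had 82.6, 79.1 and 82.2 TPM in myb3r1 and 64.8, 59.1 and 58.6 TPM in Col-0, again without overlap (0.42, SE 0.06, adjusted p = 0.00118). BUBR1 of the spindle checkpoint and CDC20.2 and CCS52B, activators of the anaphase-promoting complex, rose by 0.39, 0.39 and 0.34, and MAD2 of the checkpoint by 0.25. BUBR1 averaged 19.2 ± 1.24 TPM in myb3r1 and 14.5 ± 0.47 TPM in Col-0, MAD2 82.7 ± 2.66 TPM in myb3r1 and 69.4 ± 1.31 TPM in Col-0 and CCS52B 50.6 ± 1.32 TPM in myb3r1 and 39.9 ± 2.4 TPM in Col-0 (SD, n = 3 each). CDC20.2 averaged 55.5 ± 1.67 TPM in myb3r1 and 42.3 ± 2.53 TPM in Col-0, and is a near copy of its neighbour CDC20.1, so the split of reads between them is uncertain. The fall was that of TOPII, a DNA topoisomerase, at 27.1 ± 1.15 TPM in myb3r1 and 30.6 ± 1.64 TPM in Col-0. The calls of MAD2 and TOPII were each lost in 4 of the 6 fits without a library, both without Col-0 replicate 3, myb3r1 replicate 2 or myb3r1 replicate 3, MAD2 also without Col-0 replicate 2 and TOPII without Col-0 replicate 1. The Aurora kinase AUR1 did not pass, being at 41.3 ± 2.03 TPM in myb3r1 and 36.7 ± 2.23 TPM in Col-0 (adjusted p = 0.0856).

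Of 21 cytokinesis and phragmoplast genes, 6 rose and none fell, beside 3.16% and 3.10% of all tested genes. The list median was 0.022. EB1C, which binds the growing ends of spindle microtubules, had 40.1, 39.2 and 38 TPM in myb3r1 and 33.4, 33.5 and 31.9 TPM in Col-0, a difference of 0.24 (SE 0.046, adjusted p = 0.00681) with no overlap. PATL4, a patellin of the cell plate, differed by 0.26 (adjusted p = 0.000359), and the kinase MKK6 and the kinesins HIK and TES, which act in a cascade that expands the phragmoplast, by 0.29, 0.18 and 0.29. SNAP33, a SNARE of membrane fusion at the cell plate, differed by 0.18. Depending on the library left out, 2 to 5 genes of the list passed, with 2 without myb3r1 replicate 1 and 3 without myb3r1 replicate 3. With the spread taken from the 6 libraries of this comparison alone, 3 passed, and of the mitotic cyclins and kinases 1 fell. EB1C and PATL4 kept their calls in all 6 such fits. MKK6 lost its call without myb3r1 replicate 1, HIK without that library, myb3r1 replicate 3 or Col-0 replicate 3, TES in all but the fit without Col-0 replicate 1, and SNAP33 in all but the fit without Col-0 replicate 3.

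The promoters of 5 of these genes are shown because they hold the core of the MSA element, AACGG, and because the genes moved in different directions. Each line gives the 250 bases upstream of the annotated gene start in TAIR10.1, read 5′ to 3′ on the gene's strand, from the RefSeq copy of the genome. Capitals mark AACGG or its reverse complement CCGTT. The first is SCL28, with 4 matches, from 102 to 35 bases before the start.
SCL28, chr1:23402177-23402426, minus strand: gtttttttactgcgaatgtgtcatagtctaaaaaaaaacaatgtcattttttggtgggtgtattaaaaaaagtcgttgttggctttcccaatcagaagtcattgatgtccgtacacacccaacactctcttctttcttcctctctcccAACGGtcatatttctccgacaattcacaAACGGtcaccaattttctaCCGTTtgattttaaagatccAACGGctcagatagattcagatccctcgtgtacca
PANS1, chr3:4710233-4710482, plus strand: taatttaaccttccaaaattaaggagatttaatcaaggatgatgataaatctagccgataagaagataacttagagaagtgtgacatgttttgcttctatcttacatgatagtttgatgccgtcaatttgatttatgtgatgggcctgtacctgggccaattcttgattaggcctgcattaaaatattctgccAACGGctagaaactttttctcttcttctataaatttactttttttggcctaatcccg
MAD2, chr3:9502806-9503055, plus strand: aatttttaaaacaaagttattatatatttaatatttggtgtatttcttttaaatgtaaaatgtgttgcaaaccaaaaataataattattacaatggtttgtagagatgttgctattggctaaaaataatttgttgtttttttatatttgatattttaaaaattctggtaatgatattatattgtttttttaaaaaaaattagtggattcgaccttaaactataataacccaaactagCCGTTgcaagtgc
HIK, chr1:6324379-6324628, minus strand: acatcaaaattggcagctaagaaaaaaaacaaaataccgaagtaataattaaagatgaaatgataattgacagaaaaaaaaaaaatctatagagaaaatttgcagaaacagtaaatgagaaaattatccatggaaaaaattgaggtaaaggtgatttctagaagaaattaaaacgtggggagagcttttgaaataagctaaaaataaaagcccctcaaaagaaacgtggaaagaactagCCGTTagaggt
CYCA1;1, chr1:16777353-16777602, minus strand: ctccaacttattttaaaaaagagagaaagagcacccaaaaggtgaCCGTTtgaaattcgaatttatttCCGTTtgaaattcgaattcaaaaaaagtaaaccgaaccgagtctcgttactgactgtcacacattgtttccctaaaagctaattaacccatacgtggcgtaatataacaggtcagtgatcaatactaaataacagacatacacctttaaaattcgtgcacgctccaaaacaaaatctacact
PANS1, MAD2 and HIK each hold 1 match, at 57, 13 and 11 bases before the start, and CYCA1;1 holds 2. In windows of this length the core, searched on both strands, occurred in 16 of 26 mitotic regulators (61.5%), 12 of 21 cytokinesis genes (57.1%) and 10 of 20 mitotic cyclins and kinases (50%), against 21.9% of 21468 tested genes with a window. It occurred in 24.8% of the 682 such genes higher in myb3r1 and in 19.7% of the 671 lower ones. BUBR1, CDC20.2, CCS52B, EB1C and MKK6 rose and had no match in the window.

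Few genes of the preceding cell cycle phases passed the test. Of 23 DNA replication genes 2 rose, CDT1A, which licenses replication origins, at 24.5 ± 0.925 TPM in myb3r1 and 21.8 ± 0.346 TPM in Col-0, and TSO2, a ribonucleotide reductase subunit, at 101 ± 1.72 TPM in myb3r1 and 86.7 ± 8.21 TPM in Col-0 (SD, n = 3 each). The median of this list was 0.12, with 20 of 23 differences positive, yet no member passed by limma without Col-0 replicate 2 or 3 or myb3r1 replicate 2 or 3, and 1 passed without myb3r1 replicate 1. At an unadjusted p under 0.05, 10 of the 23 were higher, beside 2447 of all 21737 genes. Among 10 D-type cyclins, which couple growth signals to the cycle, CYCD3;1 and CYCD3;3 rose by 0.25 and 0.24, and CYCD7;1, known from the stomatal lineage and pollen, fell to 0.605, 0.879 and 0.975 TPM in myb3r1, against 3.13, 4.06 and 2.39 TPM in Col-0 (-1.47, SE 0.23, adjusted p = 0.00197). The median of the D-type list was 0.23, with 8 of 10 differences positive. The call of CYCD3;3 was lost without Col-0 replicate 2 or 3 or myb3r1 replicate 1 or 2. None of 13 CDK inhibitors passed (0 by limma, 3 at an unadjusted p under 0.05, beside 20.9% of all genes). In the DNA damage list XRI1 alone of 13 genes rose, to 21.5 TPM in myb3r1, against 18.1 TPM in Col-0. None of 28 cytokinin genes passed (0 by limma, 3 at an unadjusted p under 0.05, against the same 20.9%), and of 21 meristem regulators REV, a homeodomain factor of leaf and meristem formation, and AIL7, an AP2-type factor, rose by 0.14 and 0.31. Without a library, XRI1 kept its call in the fit without Col-0 replicate 3, AIL7 in that without Col-0 replicate 1, and REV in those without Col-0 replicate 1 or 3.

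**Figure D2:**
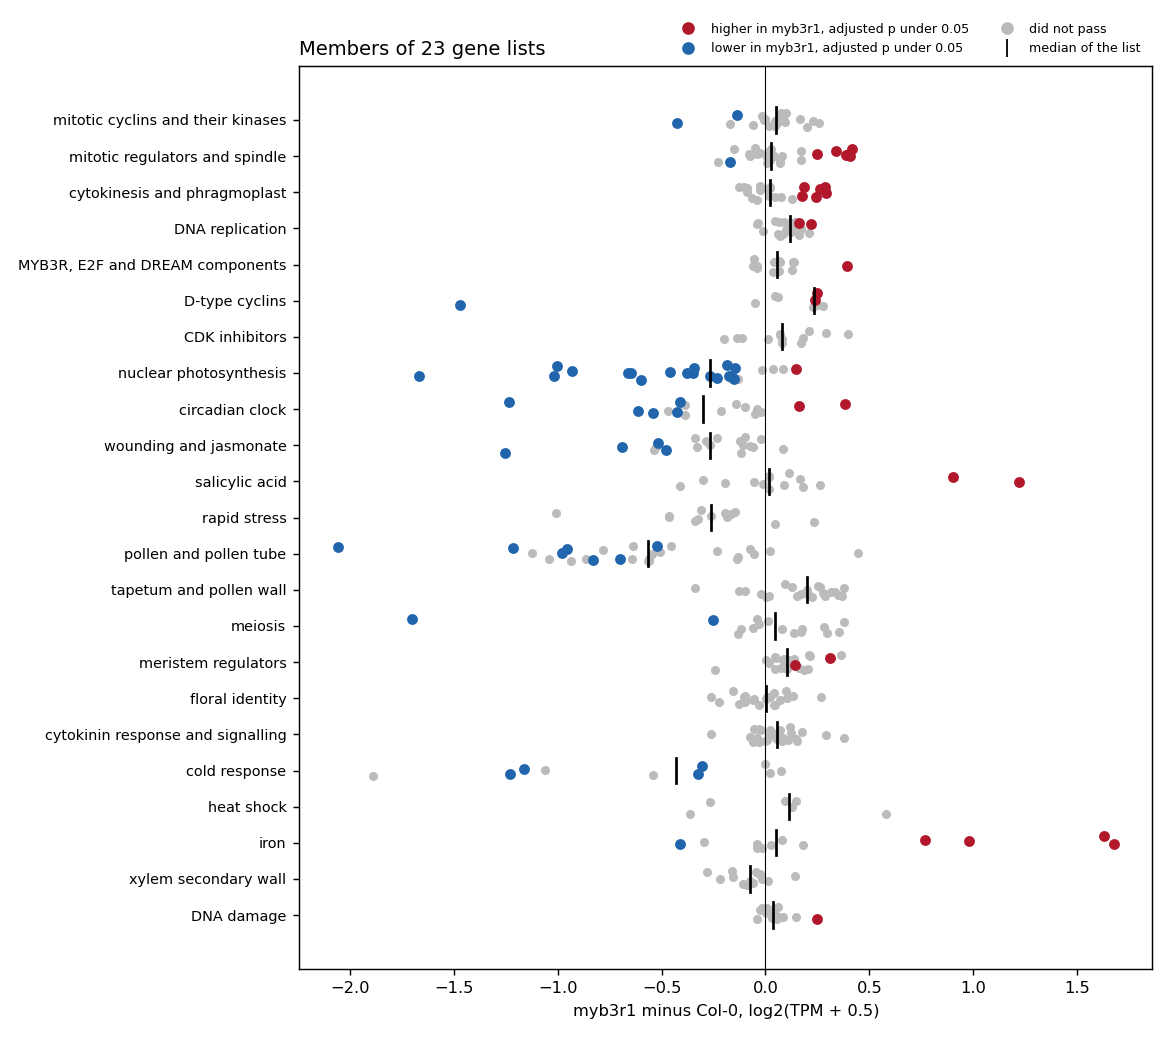
Each point is a tested member of a gene list, placed by its difference (myb3r1 minus Col-0) in log2(TPM + 0.5); red and blue mark members higher and lower in myb3r1 at an adjusted p under 0.05, grey members that did not pass, and black bars list medians. The mitosis, cytokinesis and CDK inhibitor lists stand near 0, while DNA replication and D-type cyclins have medians of 0.12 and 0.23. Of nuclear photosynthesis genes 18 of 23, and of pollen genes 7 of 27, are marked as lower.

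Nuclear photosynthesis genes gave the largest share of called members of any list. Of 23 tested, 18 fell and 1 rose in myb3r1, beside 3.10% and 3.16% of all tested genes. The list median was -0.27, and its largest positive difference was 0.15. LHCB1.1, which encodes a chlorophyll-binding protein of the photosystem II antenna, had 88.5, 103 and 102 TPM in myb3r1 and 308, 334 and 291 TPM in Col-0. The groups lay far apart, by -1.67 (SE 0.12, adjusted p = 7.47e-06). LHCB1.2 had 268, 320.2 and 298 TPM in myb3r1 and 591, 608 and 589.6 TPM in Col-0 (-1.02, SE 0.06, adjusted p = 1.7e-06). Near-identical copies such as the LHCB1 genes share reads, so the split among them is uncertain, but the third copy, LHCB1.3, fell too, to 3601, 3826 and 3745 TPM in myb3r1, against 5078, 5170.1 and 5126 TPM in Col-0. LHCB2.1 and LHCB2.2 of the same antenna fell by 1.00 and by 0.93 on the log2 scale. Photosystem I antenna genes followed, LHCA1 being at 800.0 ± 47.6 TPM in myb3r1 and 1266 ± 30.1 TPM in Col-0 (-0.66) and LHCA4 at 815 ± 28.6 TPM in myb3r1 and 1235 ± 27.9 TPM in Col-0 (-0.60; SD, n = 3 each). RBCS1A, a small subunit of Rubisco, was not lower, with 7019, 6815 and 7144 TPM in myb3r1 and 6869, 7074 and 6532 TPM in Col-0, values that overlapped. The 23 genes together summed to 24060.5 to 24757 TPM in myb3r1 and 28319 to 29817 TPM in Col-0. The other groups also lay below Col-0, at means of 21239 (double mutant), 23485 (myb3r4) and 24704 TPM (mNES line). All these differences rest on the same 3 Col-0 libraries. The number of the 23 that passed as lower was 13 to 18 when a library was left out, the fewest without Col-0 replicate 2. None passed as higher without Col-0 replicate 1 or 3 or myb3r1 replicate 1 or 3. Of 104 genes of the chloroplast genome, 1 rose and none fell; it was ATCG00760, at 16, 14.5 and 32.1 TPM in myb3r1 and 9.66, 5.51 and 4.57 TPM in Col-0, in libraries enriched for polyadenylated RNA, and its call was lost without Col-0 replicate 2 or 3 or myb3r1 replicate 3.

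Of 16 circadian clock genes 5 fell and 2 rose, beside 3.10% and 3.16% of all tested genes. The list median was -0.30, with 14 of 16 differences negative. PRR7, a pseudo-response regulator that represses morning genes, had 27.2, 27.4 and 26.4 TPM in myb3r1 and 39.7, 38.5 and 40.4 TPM in Col-0, tight groups apart by -0.54 (SE 0.054, adjusted p = 8.27e-05). GI, a scaffold of the clock and of photoperiodic flowering, had 30.3, 30.9 and 30.3 TPM in myb3r1 and 40.8, 40.6 and 40.9 TPM in Col-0 (-0.41, SE 0.058, adjusted p = 0.00106). LNK1 and LNK2, coactivators of evening genes, fell by 0.43 and by 0.61 on the log2 scale. PRR5 fell to 26.5, 18.6 and 21.4 TPM in myb3r1, against 33.6, 65.2 and 64.9 TPM in Col-0. Its lowest Col-0 library was replicate 1, still above all myb3r1 libraries, and the fall (-1.23, SE 0.27, adjusted p = 0.0154) kept its call only without Col-0 replicate 1 or myb3r1 replicate 1. CO, the photoperiod regulator of flowering, and PRR3 rose by 0.38 and 0.16; of the fits without a library, CO passed in that without Col-0 replicate 3 and PRR3 in that without Col-0 replicate 1. TOC1, ELF4, CCA1 and FKF1 did not pass. The time of day of harvest is not in the labels used here, and its part in these differences was not tested.

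The evening element AAAATATCT, a short sequence known from promoters of evening-phased genes, stood in the windows of 42 of 671 lower genes (6.26%), 18 of 682 higher genes (2.64%) and 2.51% of all tested genes, and in those of 8 of 231 genes lower by at least 2-fold (3.46%), searched on both strands over 250 bases. Of the clock list, 4 of 16 promoters held it (25%), those of TOC1, PRR5, LUX and FKF1, of which PRR5 passed the test. The 42 genes, taken from the lower ones, had a median difference of -0.46, beside -0.70 over all 673 lower genes. The windows of PRR5 and of 4 further genes of these 42, the ones with the smallest adjusted p whose window holds no other annotated gene, are given with the matches in capitals (AAAATATCT or its reverse complement AGATATTTT).
PRR5, chr5:8358547-8358796, minus strand: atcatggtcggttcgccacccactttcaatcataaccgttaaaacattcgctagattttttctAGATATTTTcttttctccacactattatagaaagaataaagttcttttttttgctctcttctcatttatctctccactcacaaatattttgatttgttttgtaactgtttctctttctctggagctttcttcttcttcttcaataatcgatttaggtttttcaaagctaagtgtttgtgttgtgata
AT2G30600, chr2:13036564-13036813, plus strand: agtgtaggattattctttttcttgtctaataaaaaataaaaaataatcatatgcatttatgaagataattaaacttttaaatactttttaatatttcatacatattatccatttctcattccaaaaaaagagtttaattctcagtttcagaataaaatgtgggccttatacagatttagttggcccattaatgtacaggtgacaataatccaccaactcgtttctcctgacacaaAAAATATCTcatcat
CCR1, chr4:18275217-18275466, minus strand: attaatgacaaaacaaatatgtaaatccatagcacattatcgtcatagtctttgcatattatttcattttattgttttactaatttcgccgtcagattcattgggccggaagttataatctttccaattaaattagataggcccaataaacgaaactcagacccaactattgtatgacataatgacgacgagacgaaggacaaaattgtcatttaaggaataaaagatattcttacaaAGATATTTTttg
AT2G16365, chr2:7073869-7074118, plus strand: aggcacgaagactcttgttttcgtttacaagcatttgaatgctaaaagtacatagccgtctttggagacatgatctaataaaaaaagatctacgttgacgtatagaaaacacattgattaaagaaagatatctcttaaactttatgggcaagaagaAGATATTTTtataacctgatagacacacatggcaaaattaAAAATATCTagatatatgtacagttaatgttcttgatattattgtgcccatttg
CYP71B26, chr3:9634823-9635072, minus strand: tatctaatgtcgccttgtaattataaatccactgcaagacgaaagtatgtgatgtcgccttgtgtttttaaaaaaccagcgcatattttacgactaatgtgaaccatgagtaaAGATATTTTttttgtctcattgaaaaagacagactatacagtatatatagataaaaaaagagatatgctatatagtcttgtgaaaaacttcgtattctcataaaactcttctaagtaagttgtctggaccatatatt
The match in PRR5 starts 187 bases before the gene start, those of AT2G30600 and CCR1 15 and 12 bases before it, and AT2G16365 holds 2. AT2G30600, a BTB/POZ domain protein, averaged 26.3 TPM in myb3r1 and 48.8 TPM in Col-0 (-0.88, adjusted p = 1.66e-05), and CCR1, a cold- and clock-regulated RNA-binding protein, 577 TPM in myb3r1 and 852 TPM in Col-0 (-0.56, adjusted p = 1.68e-05). The light-dependent chlorophyll synthesis enzyme PORB, also among the 42, averaged 362 TPM in myb3r1 and 505 TPM in Col-0 (-0.48, adjusted p = 1.06e-05). Matches describe these letters only.

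Of 10 cold-response genes 4 fell and none rose, beside 3.10% and 3.16% of all tested genes. The list median was -0.43. RD29A, a dehydration and cold marker, had 23.9, 27.6 and 26.1 TPM in myb3r1 and 56.9, 60.6 and 57.6 TPM in Col-0, with no overlap (-1.16, SE 0.12, adjusted p = 7.58e-05). COR15A and COR15B, near copies that encode chloroplast protectants, fell by 0.32 and by 0.31 on the log2 scale. CBF3, a transcription factor of the cold response, had 7.24, 6.43 and 7.25 TPM in myb3r1 and 11, 23.3 and 19.1 TPM in Col-0, and its call held only without Col-0 replicate 1 among the 6 fits without a library. COR15A lost its call without Col-0 replicate 2 or myb3r1 replicate 1 or 3. The number that fell was 6 without Col-0 replicate 1, and 2 without Col-0 replicate 2 or myb3r1 replicate 1 or 3.

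Of 19 wounding and jasmonate genes, 4 fell and none rose, beside 3.10% and 3.16% of all tested genes. The list median was -0.27. JAZ9, a repressor of jasmonate signalling that jasmonate itself induces, had 109, 104 and 109 TPM in myb3r1 and 150.5, 189 and 183 TPM in Col-0 (-0.69, SE 0.13, adjusted p = 0.00642), with no overlap. JAZ6 fell by 0.52 on the log2 scale and VSP2, a storage protein induced by jasmonate, by 0.48. JAZ7 was at 2.57, 1.48 and 1.95 TPM in myb3r1 and 4.68, 5.49 and 6.02 TPM in Col-0, a call kept in none of the 6 fits without a library. VSP2 lost its call without Col-0 replicate 2 or myb3r1 replicate 1 or 2, and in these fits 2 members fell, against 6 without Col-0 replicate 1.

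Rapid stress genes, transcripts known to rise within minutes of handling, had a median of -0.26, yet none of 13 passed (0 by limma, 0 at an unadjusted p under 0.05, beside 20.9% of all genes). Their summed level was 132.1 to 161.4 TPM in myb3r1, and in Col-0 it was 89.7 TPM in replicate 1 and 190.7 and 193.6 TPM in replicates 2 and 3. Without Col-0 replicate 1, 6 of the 13 were lower in myb3r1. Both PRR5 and CBF3 had their lowest Col-0 value in that same replicate 1. The part of handling in any of these differences was not tested.

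Defence and iron transcripts were among the largest rises. ACD6, an ankyrin protein that acts in a salicylic acid loop, had 23.4, 20.1 and 22.3 TPM in myb3r1 and 7.9, 9.7 and 9.82 TPM in Col-0. All myb3r1 libraries were above all Col-0 libraries, by 1.22 (SE 0.11, adjusted p = 2.32e-05). PNP-A, a secreted peptide induced by pathogens, had 7.57, 5.01 and 6.59 TPM in myb3r1 and 2.28, 2.88 and 4.62 TPM in Col-0 (0.90, adjusted p = 0.0156), and LURP1, known from the response to oomycetes, 13.7, 12.4 and 16.7 TPM in myb3r1 and 5.07, 6.45 and 7.67 TPM in Col-0 (1.10, adjusted p = 0.0017). The call of PNP-A was lost without Col-0 replicate 2 or myb3r1 replicate 1 or 3. ACD6 and PNP-A were the only ones of 15 tested salicylic acid genes to rise, none fell, and the list's median was 0.019. PR5, a classical pathogenesis marker, had 2.71, 2.84 and 2.8 TPM in myb3r1 and 2.94, 3.98 and 3.8 TPM in Col-0 and did not pass.

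Of 12 iron genes 4 rose and 1 fell, beside 3.16% and 3.10% of all tested genes. The list median was 0.053, with 7 differences positive and 5 negative. IMA3 (AT2G30766, listed in TAIR10.1 as uncharacterized), which encodes a small peptide that promotes iron uptake, had 13.8, 8.26 and 7.47 TPM in myb3r1 and 1.8, 2.39 and 4.12 TPM in Col-0, with no overlap (1.68, SE 0.33, adjusted p = 0.00898). It shares 639 bases with AT2G30760 and 572 with AT2G30770 on the other strand, so its reads are not certain. IMA2 (AT1G47395) and IMA1 (AT1G47400), near copies and also listed as uncharacterized, had 1.71, 3.4 and 5.88 TPM in myb3r1 and 1.14, 0.902 and 0.31 TPM in Col-0, and 3.73, 2.49 and 3.72 TPM in myb3r1 and 1.59, 1.82 and 1.74 TPM in Col-0. BHLH100, an iron deficiency regulator, rose by 0.98, and FER1, the ferritin that stores iron, fell to 169, 179 and 180.5 TPM in myb3r1, against 220.2, 240.4 and 243 TPM in Col-0 (-0.41, SE 0.065, adjusted p = 0.00226). FER1 shares 1334 bases with the antisense gene AT5G01595. The root iron transporter IRT1 did not pass. IMA3 and FER1 kept their calls in all 6 fits without a library, IMA2 in those without Col-0 replicate 1 or myb3r1 replicate 1, and IMA1 and BHLH100 only in that without myb3r1 replicate 2. The number of iron genes that rose was 2 with the spread of these 6 libraries alone, 1 without Col-0 replicate 2 or 3 or myb3r1 replicate 3, and 2 without Col-0 replicate 1 or myb3r1 replicate 1.

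Genes with the smallest adjusted p among well-expressed transcripts included several with tight, separate groups. Hsp70-2, a heat shock protein 70, had 76.9, 78.6 and 78.9 TPM in myb3r1 and 39.9, 38.3 and 37.9 TPM in Col-0 (1.00, SE 0.064, adjusted p = 2.25e-06), while none of 6 heat shock genes of the list passed (0 by limma, 3 at an unadjusted p under 0.05, beside 20.9% of all genes). JMJD5, a histone demethylase linked to the clock, had 179, 166 and 173 TPM in myb3r1 and 112, 115 and 124 TPM in Col-0 (0.56, adjusted p = 1.02e-05). ESM1, which modifies glucosinolate breakdown, averaged 209.5 ± 7.7 TPM in myb3r1 and 136 ± 3.55 TPM in Col-0, and PME5, a pectin methylesterase of the shoot apex, 202 ± 4.18 TPM in myb3r1 and 150.0 ± 6.62 TPM in Col-0 (SD, n = 3 each). ECS1 and AT2G25510, an uncharacterized protein, rose by 0.53 and 0.82.

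A few transcripts differed almost as present and absent. MRD1 (AT1G53480, chromosome 1, 19963047 to 19964712, minus strand), named for its response in a methionine-accumulating mutant, had 0.302, 0.0707 and 0.2 TPM in myb3r1 and 44.5, 43.4 and 49.2 TPM in Col-0, a difference of -6.08 (SE 0.15, adjusted p = 3.41e-11). It had 0.108, 0.248 and 0.217 TPM in the double mutant, 0.55, 0.254 and 0.578 TPM in myb3r4 and 40.7, 42.2 and 41.8 TPM in the mNES line, so all 3 mutant groups were low and Col-0 and the mNES line high. HEI10, a RING protein of meiotic crossover formation, shares 1446 bases with MRD1 on the opposite strand. HEI10 had 1.74, 2.06 and 2 TPM in myb3r1 and 8.23, 7.48 and 6.58 TPM in Col-0 (-1.70, SE 0.11, adjusted p = 2.15e-06), and the libraries are not stated to keep strand, so reads of the pair cannot be told apart. The pseudogene AT5G35935 showed the opposite arrangement, with 8.03, 6.92 and 7.38 TPM in myb3r1 and 0.0254, 0.00887 and 0 TPM in Col-0, 8.6, 8.19 and 8.65 TPM in the double mutant, 6.91, 7.27 and 6.81 TPM in myb3r4 and 0.0445, 0.00894 and 0.0131 TPM in the mNES line. AT3G29120, another pseudogene, had 8.87, 9.33 and 9.99 TPM in myb3r1 and 0.468, 2.32 and 1.82 TPM in Col-0, with 7.95 TPM on average in the double mutant, 10.3 TPM in myb3r4 and 1.4 TPM in the mNES line. These comparisons share the Col-0 libraries. The labels do not say whether the lines share a genetic background, so for MRD1, HEI10, AT5G35935 and AT3G29120 an effect of the mutations and a difference in background cannot be told apart, in these values and in the interactions that rest on them.

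**Figure D3:**
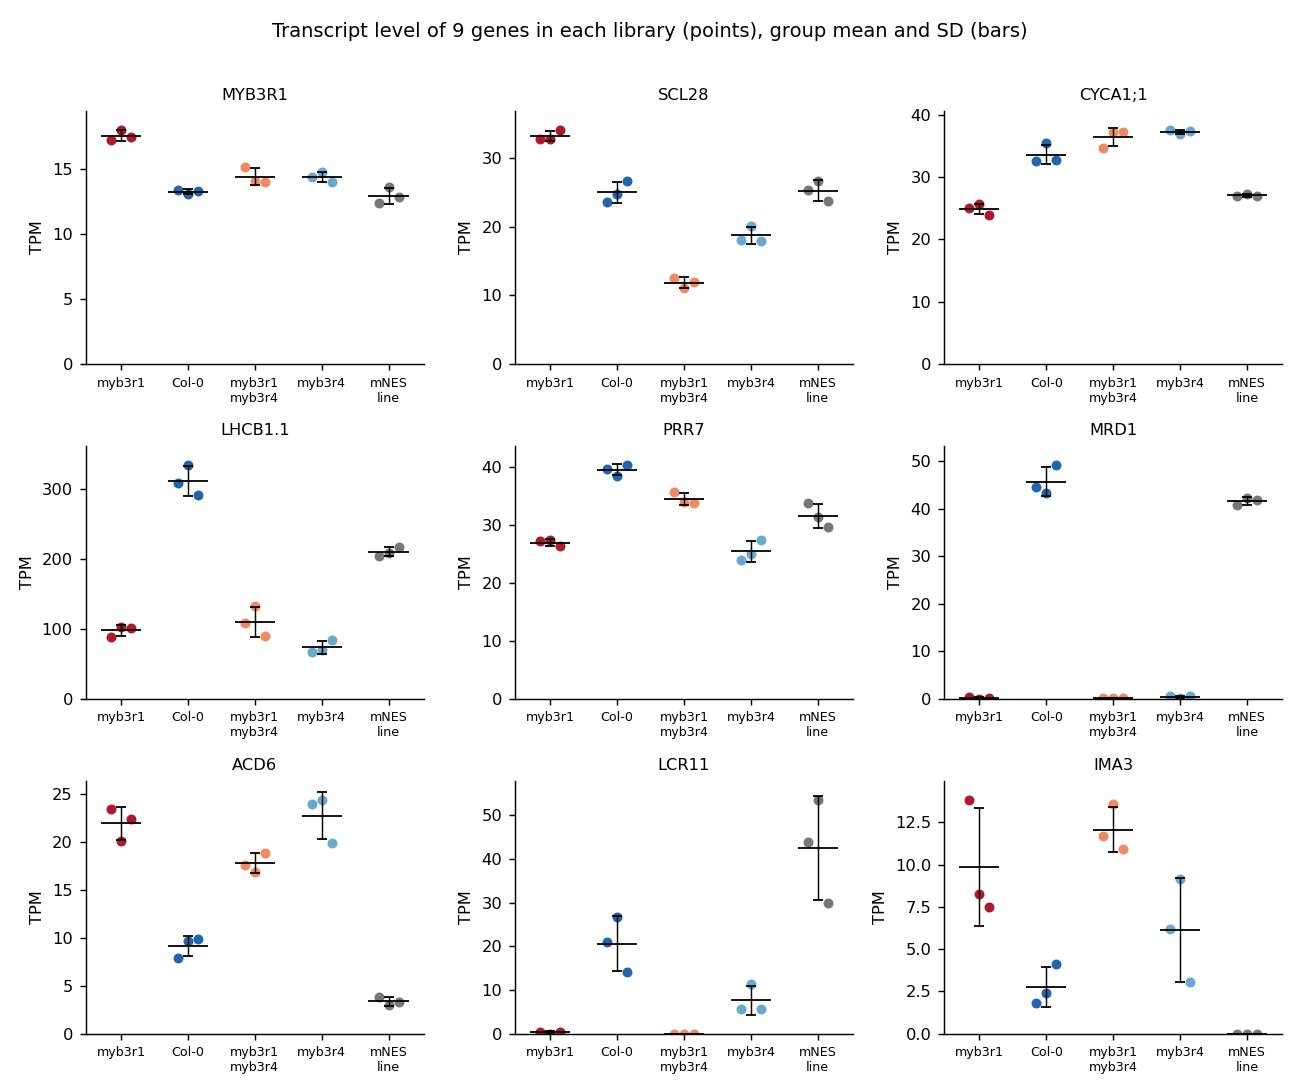
TPM of 9 genes in each of the 15 libraries (points), with group means (horizontal bars) and SD (error bars), for myb3r1, Col-0, the double mutant, myb3r4 and the mNES line. MRD1 is near 0 in all 3 mutant groups, LCR11 is near 0 in myb3r1 and the double mutant, and MYB3R1 is highest in the libraries labelled myb3r1.

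The 12 largest falls, led by MRD1, held genes of several annotated products. LCR11, a low-molecular-weight cysteine-rich peptide, had 0.503, 0 and 0.502 TPM in myb3r1 and 21, 26.7 and 14.1 TPM in Col-0 (-4.68, SE 0.33, adjusted p = 5.15e-06). RALFL26, a peptide of the RALF family of cell growth signals, was listed at 0 in every myb3r1 library and had 3.83, 12.1 and 4.99 TPM in Col-0 (adjusted p = 1.09e-05). AT2G35765 and AT2G43386, both uncharacterized proteins, had 0, 0.532 and 0 TPM in myb3r1 and 10.7, 16 and 6.31 TPM in Col-0, and 0 in every myb3r1 library and 11.8, 4.9 and 7.03 TPM in Col-0. AT1G60740, a thioredoxin superfamily gene, had 0, 0.357 and 0 TPM in myb3r1 and 4.77, 12.2 and 6.83 TPM in Col-0, and AT5G26692, a putative membrane lipoprotein, 0, 1.78 and 0 TPM in myb3r1 and 7.23, 15.3 and 7.84 TPM in Col-0. AT3G26860, of the S1 self-incompatibility family, had 0.301, 1.95 and 0.306 TPM in myb3r1 and 9.28, 29.3 and 13.2 TPM in Col-0, PMEI1, an inhibitor of pectin methylesterases, 0, 0.116 and 0 TPM in myb3r1 and 3.47, 7.05 and 4.62 TPM in Col-0, and BCP1, homologous to a Brassica pollen protein, 0.18, 1.25 and 0.395 TPM in myb3r1 and 6.42, 14.1 and 9.27 TPM in Col-0. In each of these the groups stood apart, and in each Col-0 replicate 2 was the highest library except in AT2G43386, where it was the lowest of Col-0. The defensin-like gene AT5G60615, outside these 12 (-2.97), had 4.43, 9.76 and 5.04 TPM in myb3r1 and 37, 89.1 and 39.8 TPM in Col-0. Its mean Col-0 level of 55.3 TPM was the highest among those named here, and its call was lost without Col-0 replicate 2.

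By annotated product, families grouped after their values had been seen, 8 of 17 S1 self-incompatibility proteins fell and none rose (median -0.93), as did 11 of 90 defensin-like and other cysteine-rich peptides (median -0.73, none rose). Over all tested genes 3.10% fell and 3.16% rose. The S1 genes AT4G24974, AT5G04047 and AT1G28306 kept their calls in 0, 2 and 3 of the 6 fits without a library. The other S1 genes that fell kept theirs in all 6. AT4G24974 and AT5G04047 averaged 0.456 and 0.751 TPM in Col-0 and met the filter only through the mNES line. LCR31, LCR50 and LCR44 kept theirs in 0, 0 and 1 of these fits, and the other cysteine-rich falls in at least 4. LCR50 was listed at 0 in every library of myb3r1, myb3r4 and the double mutant. In Col-0 it had 1.67, 1.7 and 1.92 TPM, and in the mNES line 0.896, 0 and 4.4 TPM. It met the filter only with its Col-0 values, so it could be called only as a fall. Of 65 genes whose product name holds the words pectin methylesterase inhibitor, 16 fell and 3 rose. Where this is the name of a superfamily, it does not show that the member acts as an inhibitor. Of 24 RALF-like peptides 3 fell and 2 rose. The RALF members that rose, RALFL34 and RALFL31, were far more abundant, at 385 and 35.3 TPM in myb3r1 and 334 and 28.8 TPM in Col-0, than those that fell, RALFL25, RALFL26 and RALFL30, which averaged 4.35, 6.98 and 3.18 TPM in Col-0. RALFL31 lost its call without Col-0 replicate 1 or 2 or myb3r1 replicate 1 or 3. Ribosomal protein genes hardly moved, with 3 higher and 1 lower of 331.

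The pollen list holds markers of a tissue the dissection could include. It gave 7 falls and no rise among 27 tested genes, beside 3.10% and 3.16% of all tested genes. The list median was -0.56, with 25 differences negative. BUPS1, a receptor kinase that keeps pollen tubes intact, had 2.01, 2.12 and 1.93 TPM in myb3r1 and 3.94, 5.3 and 4.04 TPM in Col-0 (-0.96, SE 0.14, adjusted p = 0.00139). The phosphatase PTEN1 and the receptor kinase ANX2, both of pollen, were at or near 0 in myb3r1, PTEN1 with 0, 0 and 0.0301 TPM in myb3r1 and 1.53, 2.77 and 0.945 TPM in Col-0. LLG2, a partner of such kinases, the calcium pump ACA9 and the sperm histone HTR10 fell by 0.52, by 0.83 and by 0.98 on the log2 scale. The list summed to 424.5, 459.9 and 509.1 TPM in myb3r1 and 708.0, 828.0 and 730.2 TPM in Col-0, without overlap. In myb3r4 the sums were 483.5, 365.5 and 618.6 TPM, also below all Col-0 libraries. The means were 174.0 TPM in the double mutant and 884.4 TPM in the mNES line. All groups are set against the same Col-0 libraries. With the spread taken from the 6 myb3r1 and Col-0 libraries alone, 17 of 27 fell. The count was 4 without myb3r1 replicate 1 or Col-0 replicate 2, where ACA9 did not pass, and HTR10 passed only without myb3r1 replicate 3. Tapetum and pollen wall genes did not fall with them: none of 22 passed (0 by limma, 4 at an unadjusted p under 0.05, all higher, beside 20.9% of all genes), with a median of 0.20. A9, a tapetum marker, had 414, 324 and 376 TPM in myb3r1 and 346, 279 and 288 TPM in Col-0. Of 16 meiosis genes HEI10 and the recombinase DMC1 fell, DMC1 to 14.7 TPM in myb3r1, against 17.6 TPM in Col-0, a call lost in each of the 6 fits without a library. Xylem markers, the other tissue checked, did not pass in any of 15 genes (0 by limma, 0 at an unadjusted p under 0.05, beside 20.9% of all genes). How far the share of older anthers in the pools moved the pollen genes was not tested.

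**Figure D4:**
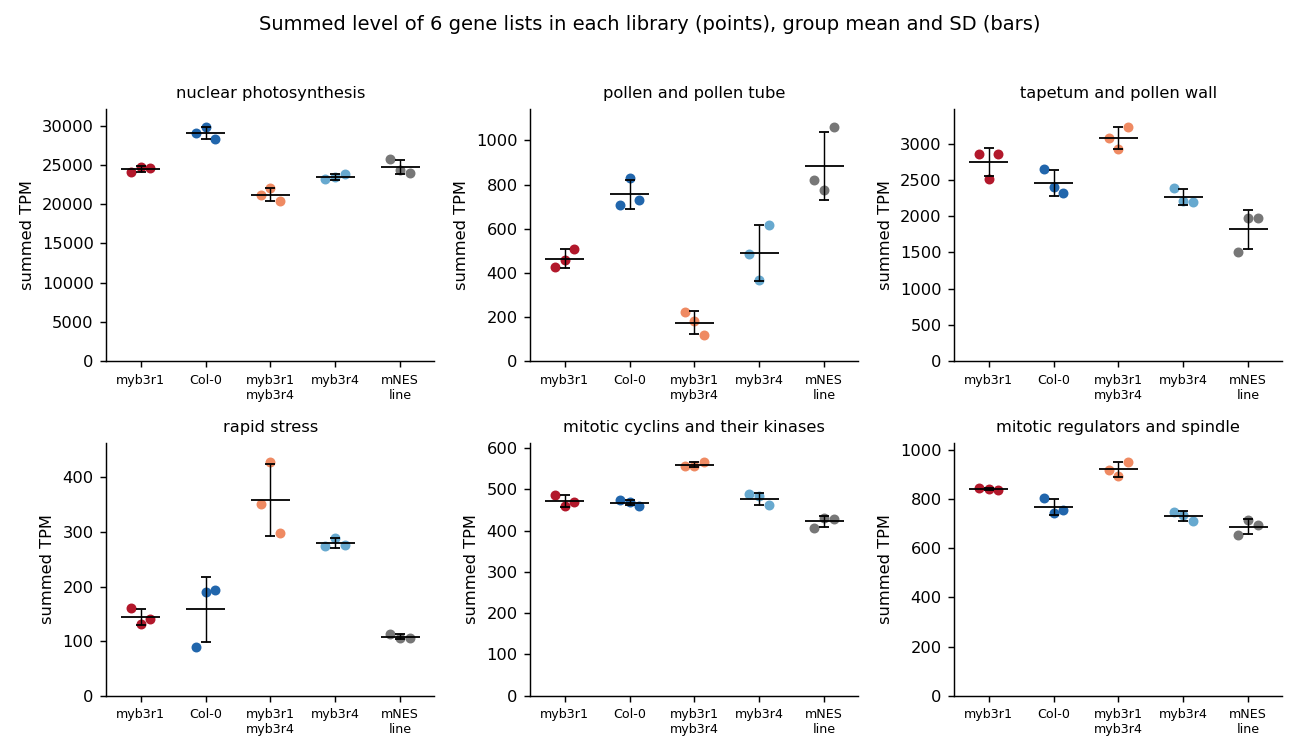
Summed TPM of 6 gene lists in each library (points), with group means (horizontal bars) and SD (error bars). The nuclear photosynthesis and pollen sums of myb3r1 lie below all Col-0 libraries, the tapetum sums overlap, and Col-0 replicate 1 lies below the other Col-0 libraries in the rapid stress list.

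A separate comparison asks whether the same differences appear where MYB3R4 is mutated as well. Between the double mutant and myb3r4, which share no library with the comparison above, 7544 genes passed the test (34.7%), 4365 higher (20.1%) and 3179 lower (14.6%) in the double mutant, and 3166 higher and 3899 lower when the libraries were scaled by the median of ratios. Of the 687 genes higher in myb3r1 than in Col-0, 289 (42.1%, or 6.62% of the 4365) were also higher in the double mutant than in myb3r4, and 105 were lower. Of the 673 lower genes, 347 (51.6%, or 10.9% of the 3179) were also lower, beside a background of 14.6%, and 72 were higher. Across all tested genes the differences of both comparisons correlated with r = 0.44 and rho = 0.30 over 21737 genes, a description across genes that share libraries.

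**Figure D5:**
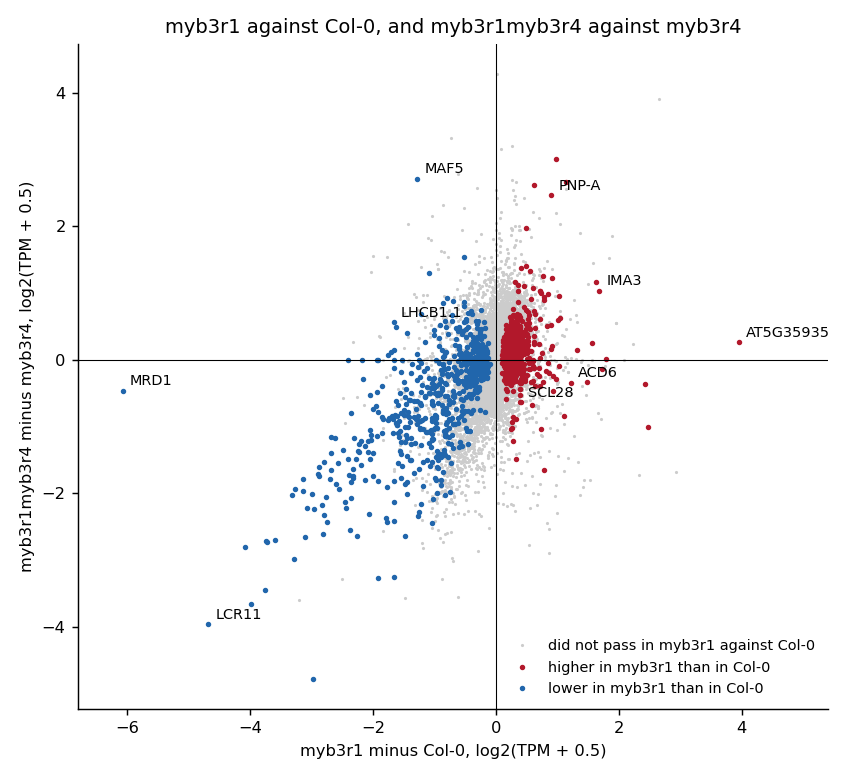
Each point is a tested gene, with its difference in myb3r1 minus Col-0 on the horizontal axis and in myb3r1myb3r4 minus myb3r4 on the vertical axis, both in log2(TPM + 0.5); red and blue mark the genes higher and lower in myb3r1 than in Col-0. LCR11 is low in both comparisons, whereas MRD1 lies far to the left and near 0 on the vertical axis, and MAF5 is low in myb3r1 and high in the double mutant.

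LCR11, BCP1 and RALFL26 fell in both comparisons. LCR11 was listed at 0 in every double mutant library and had 5.77, 11.4 and 5.75 TPM in myb3r4, BCP1 had 0.379, 0.113 and 0.0981 TPM in the double mutant and 2.8, 7.38 and 5.71 TPM in myb3r4, and RALFL26 was listed at 0 in every double mutant library, against 2.39, 2.94 and 3.09 TPM in myb3r4. Of 27 pollen genes 22 fell and 1 rose, of 22 tapetum genes 20 rose and 1 fell, and of 15 xylem genes, none of which passed in myb3r1, 10 fell and none rose (median -0.60). IMA1, IMA2 and IMA3 rose in both comparisons, the last to 11.7, 13.6 and 10.9 TPM in the double mutant, against 6.21, 9.16 and 3.05 TPM in myb3r4. A defence pair rose by more there: PNP-A had 40.6, 56.2 and 50.3 TPM in the double mutant and 8.62, 8.38 and 8.31 TPM in myb3r4, and the chitinase CHI 26.5, 27.5 and 28 TPM in the double mutant and 2.24, 2.57 and 4.5 TPM in myb3r4, beside 1.4, 1.11 and 1.38 TPM in myb3r1 and 0.284, 0.377 and 0.6 TPM in Col-0. The interactions were 1.56 (adjusted p = 0.00317) and 2.02 (adjusted p = 0.000728). In myb3r1 the call of CHI was lost without Col-0 replicate 2 or myb3r1 replicate 1 or 3. In the double mutant that of IMA3 was lost without any 1 of its 3 libraries or myb3r4 replicate 3, and that of IMA2 without replicate 1 or 3 of either group.

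Other genes behaved differently in the 2 backgrounds. Of the 20 mitotic cyclins and kinases 12 rose and none fell in the double mutant, where 0 rose and 2 fell in myb3r1, and 8 of the 20 passed the interaction test of the difference, which 2665 of all tested genes passed (12.3%), with 1371 positive and 1294 negative, or 1139 and 1618 under median-of-ratios scaling. CYCA1;1 had 34.7, 37.3 and 37.2 TPM in the double mutant and 37.6, 37 and 37.4 TPM in myb3r4, overlapping values, and its interaction was 0.39 (SE 0.059, adjusted p = 0.00105). SCL28 fell to 12.6, 11.1 and 12 TPM in the double mutant, against 18.1, 20.2 and 17.9 TPM in myb3r4, a change of -0.64 opposite to that in myb3r1 (interaction -1.04, SE 0.09, adjusted p = 1.77e-05). BUBR1 went up in both, with 27.7, 29.2 and 28.3 TPM in the double mutant and 18.6, 18.3 and 17.1 TPM in myb3r4 (0.64), and its interaction did not pass (adjusted p = 0.0742). EB1C rose more there, by 0.61 (interaction 0.37, adjusted p = 0.003). Among nuclear photosynthesis genes 15 of 23 passed the interaction test. Against myb3r4, 7 of the 23 rose and 10 fell in the double mutant, with a median of -0.055. Their sum averaged 21239 TPM in the double mutant and 23485 TPM in myb3r4. LHCB1.1 was among those that rose, at 108, 133 and 89.1 TPM in the double mutant and 67.2, 69.3 and 84.3 TPM in myb3r4. It was 0.57 higher in the double mutant (limma adjusted p = 0.00302). PRR7 had 35.7, 34 and 33.8 TPM in the double mutant and 24, 25.1 and 27.5 TPM in myb3r4, also higher in the double mutant (interaction 0.97, SE 0.077, adjusted p = 8.31e-06). ACD6 had 17.6, 16.9 and 18.9 TPM in the double mutant and 23.9, 24.4 and 19.9 TPM in myb3r4.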

How the data were processed

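RNA from 15 pools of 36 inflorescence meristems, 3 per group, was sequenced as mRNA selected with oligo(dT), per the labels' protocols. The deposited values are TPM per gene, and the submitters' processing notes name Salmon, FastQC and TAIR10. How transcripts were summed to genes is not given in the sources used here, and depth is unknown, so no counting interval can be given. Genes with at least 1 TPM in 3 or more libraries (21737) were tested with limma 3.58.1 in R 4.3.3 on log2(TPM + 0.5), the group means of all 15 libraries, a trend in the prior variance, two-sided tests and Benjamini-Hochberg adjustment over all tested genes, with a threshold of 0.05. The script was tested on simulated data. Low genes understate their change on this scale, and Salmon splits reads among near-identical copies. The members and gene lists were chosen with earlier results of these data known. Genes were named by a rule: the MYB3R genes; in each direction the 12 largest changes without overlap and with a group mean of at least 2 TPM, the 6 smallest adjusted p among genes with at least 20 TPM in Col-0, the 8 largest changes shared by both comparisons and the 6 largest interactions; and up to 4 members per list with the smallest adjusted p. Other genes, the product families and the promoters were chosen after their values were seen. Gene symbols are those in general use or in TAIR10.1, and positions and products are from TAIR10.1 of RefSeq, whose nuclear chromosomes have the lengths of TAIR10. Alternatives were other pseudocounts, filters, scaling, variance priors, groups and omitted libraries.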

Additional observations from a re-analysis of the deposited data

Results flagged for a closer look

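The test of the difference between backgrounds, (double mutant minus myb3r4) minus (myb3r1 minus Col-0), passed for 2665 genes at an adjusted p under 0.05 (limma), and the 12 genes given here are those with the largest interactions that also passed in myb3r1 against Col-0, 6 in each direction.

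Of these, 6 rose in myb3r1 and had negative interactions. AT5G35935 had 8.6, 8.19 and 8.65 TPM in the double mutant and 6.91, 7.27 and 6.81 TPM in myb3r4, an interaction of -3.69 (adjusted p = 8.31e-09). AT3G29120 had an interaction of -2.78 (adjusted p = 0.00138). AT2G46995 had 1.6, 3.62 and 2.01 TPM in myb3r1 and was listed at 0 in every Col-0 library and every double mutant library, with 0, 0 and 3.54 TPM in myb3r4, so that 1 myb3r4 library carries the second difference (adjusted p = 0.216). Its interaction was -3.49 (adjusted p = 0.0184), and its call in myb3r1 was lost in each of the 6 fits without a library. AT4G03610, a metallo-hydrolase family gene that shares 795 bases with AT4G03620, had 5.05, 3.14 and 4.72 TPM in myb3r1 and 0.812, 0.68 and 1.35 TPM in Col-0, with 0.574, 0.71 and 0.549 TPM in the double mutant and 0.881, 0.758 and 0.555 TPM in myb3r4 (interaction -1.88). LURP1 had 8.81, 11.1 and 8.2 TPM in the double mutant and 18.3, 17.5 and 15.7 TPM in myb3r4 (interaction -1.95). PCC1, a gene controlled by pathogens and the clock, had 52.2, 52.5 and 54.8 TPM in myb3r1 and 26, 35.6 and 31.7 TPM in Col-0, but 13.5, 17.2 and 15.9 TPM in the double mutant and 45.9, 49.6 and 53.7 TPM in myb3r4 (interaction -2.42, adjusted p = 8.56e-06).

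Falls in myb3r1 with positive interactions were led by MRD1, at 5.61 (adjusted p = 8.76e-09). For MRD1, as for AT5G35935 and AT3G29120, a difference in genetic background between the lines cannot be told apart from the mutations. LHCB1.1, AT1G65352 and AT1G67626, given below, were also lower in every mutant group than in Col-0, and the same limit applies to them. MAF5, a MADS-box repressor of flowering, had 2.07, 1.43 and 1.5 TPM in myb3r1 and 3.99, 5.31 and 4.92 TPM in Col-0, but 12.1, 16 and 12.8 TPM in the double mutant and 1.01, 1.69 and 2.5 TPM in myb3r4 (interaction 3.99, adjusted p = 6.05e-06). THI2.1, an antimicrobial thionin induced by jasmonate, had 60.0, 87.4 and 80.8 TPM in myb3r1 and 134, 187 and 163 TPM in Col-0, with 261, 214 and 246 TPM in the double mutant and 104, 69.1 and 129.7 TPM in myb3r4 (interaction 2.38). LHCB1.1 had an interaction of 2.23 (adjusted p = 6.58e-06). AT1G65352, annotated as a putative membrane lipoprotein, was listed at 0 in every myb3r1 library, against 2.57, 3.48 and 1.01 TPM in Col-0, and also at 0 in every library of the double mutant and of myb3r4 (interaction 2.40, fitted with the pseudocount). The pseudogene AT1G67626 had 0.439, 0.571 and 0.0685 TPM in myb3r1 and 2.69, 2.46 and 1.31 TPM in Col-0, with 0.264, 0.558 and 0.756 TPM in the double mutant and 0.233, 0.0776 and 0.354 TPM in myb3r4 (interaction 2.13).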

How the results depend on the processing

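Leaving out 1 library gave 662 to 1258 changed genes in myb3r1 against Col-0 in place of 1360, with 329 to 596 higher and 333 to 662 lower; the double mutant against myb3r4 gave 5531 to 6822 and the interaction 1891 to 2517. Such fits have fewer samples. The other settings kept these counts within 1.5 times: for myb3r1 against Col-0 1322 and 1383 with pseudocounts of 0.1 and 1, 1248 without a filter, 1252 with at least 5 TPM, 1188 without the variance trend, 1335 with median-of-ratios scaling (599 higher, 736 lower) and 1455 with the spread of the 6 libraries alone (601 higher, 854 lower). The last setting gave 17 falling pollen genes in place of 7, and fewer rises in the lists of cytokinesis (3 for 6), iron (2 for 4), DNA replication, D-type cyclins, salicylic acid and meristem regulators (1 for 2 each) and the clock (0 for 2), 1 fall for 2 in mitotic cyclins, 0 for 1 in mitotic regulators, and 1 call for 0 in the tapetum (higher) and floral (lower) lists. Of 86 named results, 61 kept direction and call under all settings run and 25 changed in at least 1, most often without Col-0 replicate 2 (22 calls lost). The difference of MYB3R4 turned to 0.03791 without Col-0 replicate 1 (adjusted p = 0.718) and lay between -0.1048 and 0.03791 over the omitted libraries, against -0.057 with all, a difference that did not pass in either fit; the cause was not tested. With the replicate number as a block the counts were 1158, 7245 and 2430, and 6 named calls were lost, those of CDT1A, TSO2, CYCD3;3, DMC1, AIL7 and AT1G27240. The labels tie the numbers to a shift experiment without saying what its libraries share. Same-numbered libraries did not deviate together (correlations of -0.126 to 0.0885 over 30 pairs), so the block was not used for the values reported. Depth is unknown, and with it the counting error of genes at low TPM.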
